A study of Mus musculus with 16 samples.

Results

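The IL-20 subfamily of cytokines was followed in mouse epidermis as 6 genes, of 49585 in the count table. These were the ligands Il24, Il19 and Il20 and the receptor chains Il20ra, Il20rb and Il22ra1. Il24 was chosen by its counts in the unexposed libraries, where it was higher without C/EBPβ, so its values in that comparison describe the choice and carry no test. The others were taken as its relatives and their receptor chains, by Ensembl identifier.

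The study compared heat shock isolated epidermis of SKH-1 mice, a hairless strain, aged 8 to 12 weeks, by RNA sequencing of 16 libraries in 4 groups of 4. Control animals carried K5Cre, a Cre recombinase under the keratin 5 promoter of basal keratinocytes. The other animals are labelled C/EBPB -/- and had an epidermal specific knockout of that transcription factor. Each genotype was sampled unexposed and 6 h after 100 mJ/cm2 of UVB. The labels do not say whether the libraries of a group came from separate animals, so the p-values measure the spread between these libraries, which may be technical in part.

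IL-19, IL-20 and IL-24 belong to the wider IL-10 cytokine family and share receptors made of paired chains. The type I receptor joins the chains encoded by Il20ra and Il20rb and binds all 3 ligands. The type II receptor joins those encoded by Il22ra1 and Il20rb and binds IL-20 and IL-24. Both signal through Janus kinases and chiefly STAT3. In skin the receptors sit on keratinocytes, where the cytokines are known for raising wound keratins and antimicrobial proteins and for slowing terminal differentiation, as in psoriasis and wound repair. The Il22ra1 chain also pairs with that encoded by Il10rb to form the receptor for IL-22.

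The libraries held 32983160 to 53255160 counts. Levels are given in CPM, the counts of a gene scaled to a library total of 1000000 after TMM scaling, a correction for library composition. Cebpb, the targeted gene, had 166 ± 13.7 CPM in control and 0.574 ± 0.297 CPM in knockout epidermis without exposure (SD, n = 4 each). After UVB the values were 291 ± 28.6 CPM and 1.93 ± 1.07 CPM (SD, n = 4 each). Keratinocyte markers were present in every library, with summed levels of 6 genes from 14100 to 52100 CPM. At equal depth, the exposed control libraries held 16571 to 18969 detected genes and the exposed knockout libraries 18881 to 21169. Mitochondrial genes took 5.24 to 9.65% of counts in the former and 5.44 to 5.99% in the latter. The unexposed control libraries held 18033 to 19502 detected genes and the unexposed knockout libraries 18378 to 20775. Their mitochondrial shares were 5.62 to 8.57% and 4.33 to 10.2%. The part of these differences in the results, unexposed or after UVB, was not tested. Each group held 2 libraries from females and 2 from males by their counts of sex-linked genes. Expression of the members was measured in whole epidermis, where fewer cells of a type and less RNA per cell cannot be told apart.

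Il24 was the ligand with the clearest pattern, nearly silent in unexposed control epidermis and highest in exposed knockout epidermis. The gene lies on the minus strand of chromosome 1 at 130882074 to 130887454 (GRCm38, GENCODE), and none of its 25-base stretches recurs in another annotated gene. In unexposed control epidermis 3 libraries held 0 counts of Il24 and library 4 held 5, a level of 0.091 CPM. The unexposed knockout libraries held 91, 30, 16 and 6 counts of Il24, or 1.49, 0.531, 0.322 and 0.187 CPM. All knockout libraries were above all control libraries here, the relation for which Il24 was picked. The ratio of mean Il24 levels, 27.7, rests on the 5 counts of control library 4. Against the limit of 3 counts set for each of the 3 control libraries at 0, the unexposed knockout mean of Il24 was at least 8.33-fold higher. Unexposed knockout library 1 held most of those counts, and without it the bound was 4.57-fold. By detected genes at equal depth the unexposed knockout libraries ran in the same order as by Il24, at 20775, 20754, 20156 and 18378. The part of that in their Il24 levels was not tested. Marker sums of other cells also stood apart between these unexposed groups, from control to knockout at 18.1 to 27.4 against 32 to 39.4 CPM for monocytes and macrophages. They were 21.5 to 29.4 against 50.3 to 77.1 CPM for endothelium and 0.683 to 1.24 against 2.06 to 7.79 CPM for fibroblasts. The endothelial sum was mostly Flt1, at a mean of 24.7 against 60.0 CPM, with Pecam1 at 1.38 against 1.62 CPM and Tek at 0.423 against 1.15 CPM. Among monocyte and macrophage markers Csf1r averaged 12.0 against 23.4 CPM and Cd68 5.14 against 4.24 CPM, and the list median was 0.9 on the log2 scale. Neutrophil marker sums were 10.4 to 16.7 against 19.3 to 29.6 CPM, with the marker Ly6g at 0 in both groups. That sum was mostly Cxcr2, at a mean of 11.7 against 24.7 CPM. Csf3r had 0.246 against 0.217 CPM and Mpo 1.16 against 0.0816 CPM, and the list median was -0.18 on the log2 scale. Melanocyte marker sums were 40.3 to 78.2 against 22.8 to 38.4 CPM. The part of these cells in the Il24 level was not tested.

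After UVB, in libraries outside the comparison that picked the gene, Il24 was higher in knockout than in control epidermis. The choice was made with earlier results of these data known. The exposed control libraries had Il24 levels of 1.66, 1.24, 1.52 and 1.29 CPM, a narrow range around a mean of 1.43 ± 0.201 CPM (SD, n = 4). The exposed knockout libraries had 4.64, 8.12, 4.47 and 10.6 CPM of Il24, with a mean of 6.97 ± 2.97 CPM (SD, n = 4). The lowest knockout value of Il24 lay above the highest control value. The fitted log2 fold change of Il24 was 2.29 (SE 0.63), with an adjusted p of 0.0396 by edgeR's quasi-likelihood test with Benjamini-Hochberg adjustment over 17741 genes. Il24 was the only 1 of 5 tested members called in this comparison, in which 2.36% of all tested genes were called higher in the knockout and 2.32% lower. Every knockout library lay above every control library for 6.47% of tested genes.

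The Il24 call after UVB depended on the number of libraries. Leaving out any 1 of the 8 exposed libraries kept the Il24 log2 fold change between 2.02 and 2.45 but gave adjusted p from 0.0569 to 0.122. Under the other scalings, filters and tools the adjusted p of Il24 lay between 0.00238 and 0.0424. Cell type markers also differed between these groups. Of 6 keratinocyte markers, Krt5 and Col17a1 were called higher in exposed knockout epidermis, by 1.14 and 0.67 on the log2 scale, and the list median was 0.60. Of 6 Langerhans cell markers, 4 were called higher in exposed knockout epidermis (Itgax, H2-Ab1, Cd74 and H2-Aa, by 0.90 to 1.06 on the log2 scale), and their summed level was 634 to 793 CPM in exposed control and 770 to 963 CPM in exposed knockout libraries. The Langerhans cell marker Epcam had a log2 fold change of -0.36 (edgeR adjusted p = 0.0816). The monocyte and macrophage markers summed to 41.5 to 63.5 CPM and 51.7 to 59.8 CPM, and of these Csf1r was called higher. The most abundant of them, Cd68, had a log2 fold change of -0.43 (edgeR adjusted p = 0.225), and the list median was 0.14. The 8 T cell markers summed to 66.1 to 74.7 CPM and 61.2 to 109 CPM, with none called. The 5 endothelial markers summed to 9.02 to 25.2 CPM and 28.4 to 48.4 CPM without overlap. That sum was mostly Flt1, which was called higher. Pecam1 and Tek had log2 fold changes of -1.22 and -1.29 (edgeR adjusted p = 0.197 and 0.316), and Cdh5 and Kdr were at 0 in all exposed control libraries. The part of these cells in the Il24 level was not tested.

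Exposure went with higher Il24 in each genotype, given as values because the unexposed libraries picked the gene. The mean Il24 level in control epidermis was 0.0228 CPM unexposed and 1.43 CPM after UVB. In knockout epidermis the mean Il24 level was 0.631 CPM unexposed and 6.97 CPM after UVB, a ratio of 11. Without unexposed knockout library 1 the unexposed mean of Il24 was 0.347 CPM and the ratio 20.1. The exposed libraries lay above the unexposed libraries of their own genotype without overlap. In order of level, the groups ran from unexposed control through unexposed knockout and exposed control to exposed knockout. Of these neighbours, unexposed knockout and exposed control overlapped, since unexposed knockout library 1 reached 1.49 CPM of Il24.

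**Figure D1:**
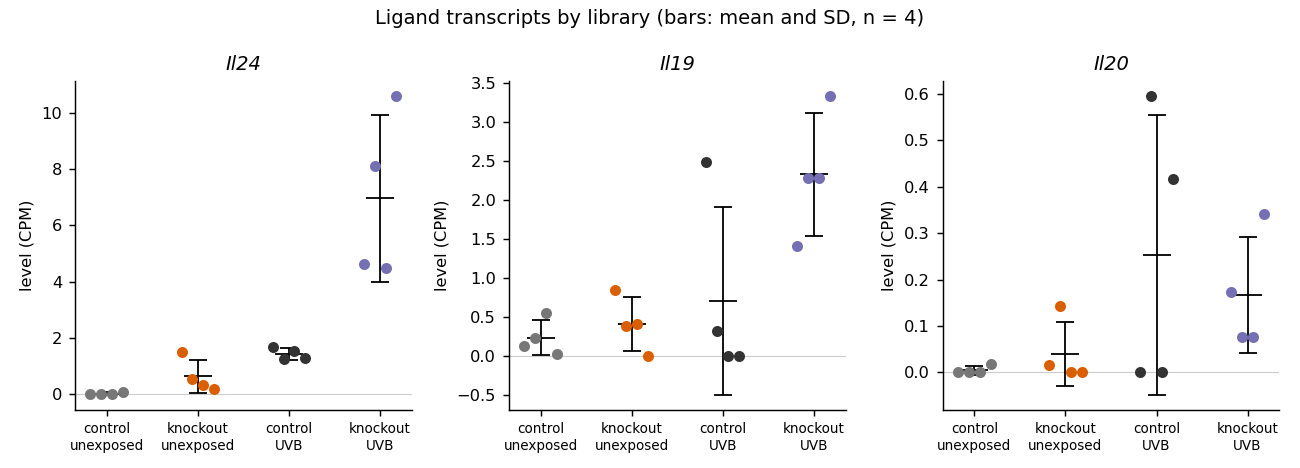
Levels of the ligand transcripts Il24, Il19 and Il20 (CPM, linear axes that differ between panels) in 16 libraries by group. Points are libraries, and bars give the mean and SD of 4. Il24 was 4.47 CPM or more in every exposed knockout library and 1.66 CPM or less in every other library. Il19 in exposed control epidermis ranged from 0 to 2.49 CPM.

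Il19, which signals through the type I receptor alone, was low and uneven. The gene lies on chromosome 1 at 130932656 to 130940115, minus strand. Unexposed control libraries had 0.132, 0.235, 0.546 and 0.0182 CPM of Il19, and unexposed knockout libraries 0.849, 0.389, 0.402 and 0 CPM. These groups overlapped, and the log2 fold change of Il19 was 0.86 (SE 1.25, edgeR adjusted p = 0.927). The exposed control libraries had 2.49, 0.32, 0 and 0 CPM of Il19, so library 1 held nearly all of its counts there. The exposed knockout libraries had 1.41, 2.28, 2.28 and 3.33 CPM of Il19, none of them near 0. The libraries at 0 CPM of Il19 had the highest mitochondrial shares of all. These were 10.2% in unexposed knockout library 4 and 9.59% and 9.65% in exposed control libraries 3 and 4. The part of this in the Il19 values was not tested.

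No comparison of Il19 passed edgeR's test. After UVB the knockout exceeded the control by 1.72 on the log2 scale (SE 1.23, edgeR adjusted p = 0.479). Without exposed control library 1 this Il19 value was 4.30 with an adjusted p of 0.0878. In knockout epidermis every exposed library had more Il19 than every unexposed library, with a log2 fold change of 2.48 (SE 1.26, edgeR adjusted p = 0.153). That Il19 comparison passed the threshold in limma voom (adjusted p = 0.0241) and in an edgeR fit of the knockout libraries alone (adjusted p = 0.02). In control epidermis the log2 fold change of Il19 with UVB was 1.62 (SE 1.27, edgeR adjusted p = 0.353), and it became -0.98 without exposed control library 1.

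Il20, which can use both receptor types, was at or near 0 throughout and failed the filter on low counts. The gene lies between the other ligands on chromosome 1, at 130906985 to 130911451, minus strand. It had 1 count in the 4 unexposed control libraries together and 9 in the unexposed knockout libraries. After UVB the control libraries had 0, 0.595, 0 and 0.417 CPM of Il20, and the knockout libraries 0.174, 0.0754, 0.0761 and 0.341 CPM. All exposed knockout libraries held Il20 counts, while the exposed controls split into 2 libraries at 0 and 2 above every knockout library. An exact two-sided permutation test on Il20 CPM gave p = 0.714 for knockout against control unexposed and p = 0.629 after UVB. The same exact test gave p = 0.429 for UVB in control and p = 0.114 for UVB in knockout epidermis. Adjusted over these 4 exact tests, p was 0.456 for UVB in knockout epidermis and 0.714 for each of the others. With 4 libraries against 4 the smallest p it can give is 0.0286.

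Il20rb, the chain common to both receptor types, was the most abundant member and fell after UVB. Per kilobase of exon, its level in unexposed control epidermis was 106 CPM, against 38.1 for Il20ra and 20.2 for Il22ra1 on the same scale. Unexposed control libraries had 427, 439, 485 and 428 CPM of Il20rb. Exposed control libraries had 169, 175, 151 and 189 CPM of Il20rb, all far below the unexposed ones. The log2 fold change of Il20rb with UVB in control epidermis was -1.38 (SE 0.15, edgeR adjusted p = 5.5e-07).

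In knockout epidermis Il20rb fell as well. Its unexposed libraries had 354, 356, 381 and 401 CPM of Il20rb and its exposed libraries 204, 157, 247 and 137 CPM. The groups did not overlap, and the log2 fold change of Il20rb was -1.0 (SE 0.15, edgeR adjusted p = 2.54e-05). The 2 UVB responses of Il20rb differed by 0.38 on the log2 scale (SE 0.21, edgeR adjusted p = 0.88). All unexposed knockout libraries lay below all unexposed control libraries for Il20rb, but the log2 fold change of -0.25 (SE 0.15) did not pass the test (edgeR adjusted p = 0.54).

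Il20ra, the chain specific to the type I receptor, had the largest fitted fall with UVB of the 3 chains in knockout epidermis. The unexposed control libraries had 92.8, 70, 110 and 97.6 CPM of Il20ra, and the exposed ones 56.7, 32.1, 37.9 and 28.5 CPM. These groups did not overlap, and Il20ra fell by 1.25 on the log2 scale (SE 0.19, edgeR adjusted p = 2.18e-05). The unexposed knockout libraries had 126, 108, 116 and 159 CPM of Il20ra, and the exposed ones 44.7, 37.1, 41.4 and 40.3 CPM. The exposed knockout values of Il20ra were tightly grouped, and the fall was 1.64 on the log2 scale (SE 0.19, edgeR adjusted p = 1.72e-06). The UVB responses of Il20ra differed between genotypes by -0.38 (SE 0.26, edgeR adjusted p = 0.915).

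Between genotypes, Il20ra in unexposed epidermis had a log2 fold change of 0.46 (SE 0.18, edgeR adjusted p = 0.26), with overlap between control library 3 and knockout library 2. After UVB its log2 fold change was 0.07 (SE 0.18, edgeR adjusted p = 0.879). The counting setting for strand is not given in the sources used here, and Il20ra overlaps the antisense gene Gm33332, so reads of the pair cannot be told apart.

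Il22ra1, which serves the type II receptor and the IL-22 receptor, was the least abundant chain and fell with UVB too. Unexposed control libraries had 50.2, 57.9, 48.5 and 51.5 CPM of Il22ra1, and exposed control libraries 15.7, 35.4, 23.5 and 27.2 CPM. The groups did not overlap, and Il22ra1 fell by 1.03 on the log2 scale (SE 0.19, edgeR adjusted p = 0.000214). Unexposed knockout libraries had 35.7, 33.4, 49.1 and 40.5 CPM of Il22ra1, and exposed knockout libraries 20.8, 20, 25.9 and 24.3 CPM. Again without overlap, Il22ra1 fell by 0.80 on the log2 scale (SE 0.19, edgeR adjusted p = 0.00222). The UVB responses of Il22ra1 differed by 0.23 (SE 0.26, edgeR adjusted p = 0.95). Knockout against control, the log2 fold change of Il22ra1 was -0.39 (SE 0.19, edgeR adjusted p = 0.396) unexposed and -0.16 (SE 0.19, edgeR adjusted p = 0.694) after UVB.

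**Figure D2:**
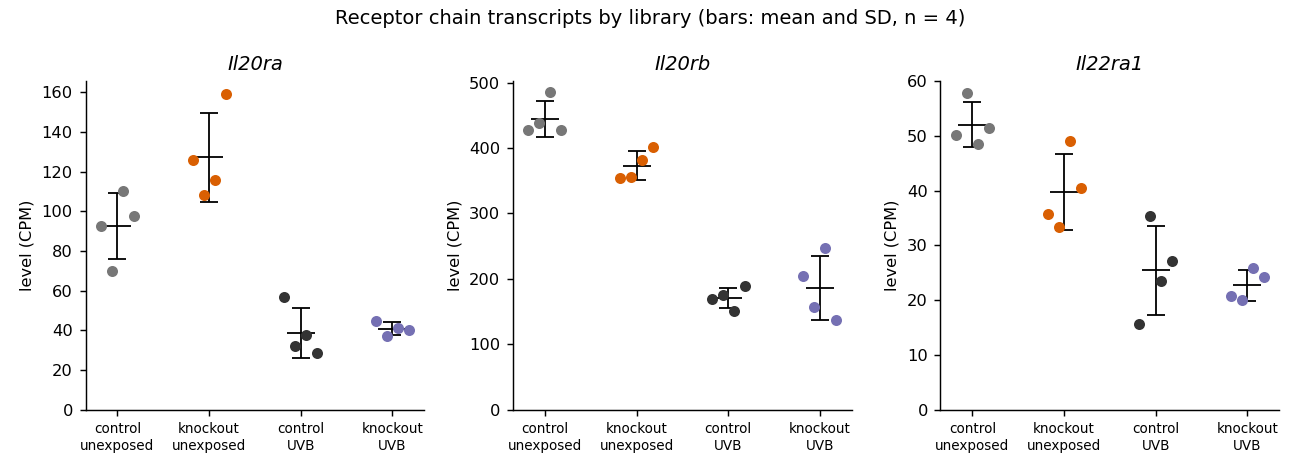
Levels of the receptor chain transcripts Il20ra, Il20rb and Il22ra1 (CPM, linear axes from 0 that differ between panels) in 16 libraries by group. Points are libraries, and bars give the mean and SD of 4. In both genotypes every exposed library lies below every unexposed library for all 3 chains, as with Il20rb at 151 to 189 CPM against 427 to 485 CPM in controls. The share of all genes that separate in this way was not counted.

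Of the 4 tested members other than Il24, 3 fell with UVB in control epidermis and the same 3, all receptor chains, fell in knockout epidermis. In these comparisons 18% of all tested genes were called lower and 17.7% higher in control epidermis, and 14.1% lower and 18.1% higher in knockout epidermis. The receptor falls were called in every alternative fit and with each library left out. Lower with UVB at an unadjusted edgeR p under 0.05 were 22.4% of all tested genes in control and 17.9% in knockout epidermis. The share of all genes whose groups stood apart was counted only for higher values in the knockout after UVB. The other separations without overlap, of Il24, Il19 and the receptor chains, are therefore descriptions with no such share beside them. Between genotypes in unexposed epidermis 0 of these 4 members were called by edgeR, DESeq2 or limma voom. There 0.964% of tested genes were called higher in the knockout and 1.14% lower. At an unadjusted p under 0.05 edgeR listed 2 of the 4, Il20ra and Il22ra1, as it did 12.4% of all tested genes in that comparison. For the difference of the UVB responses 0 of the 4 members were called by edgeR, DESeq2 or limma voom, and none had an unadjusted p under 0.05. Over all genes that difference gave 0% called higher and 0% lower in edgeR, with 1043 genes at an unadjusted p under 0.05, 31 calls in DESeq2 and 0 in limma voom.

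**Figure D3:**
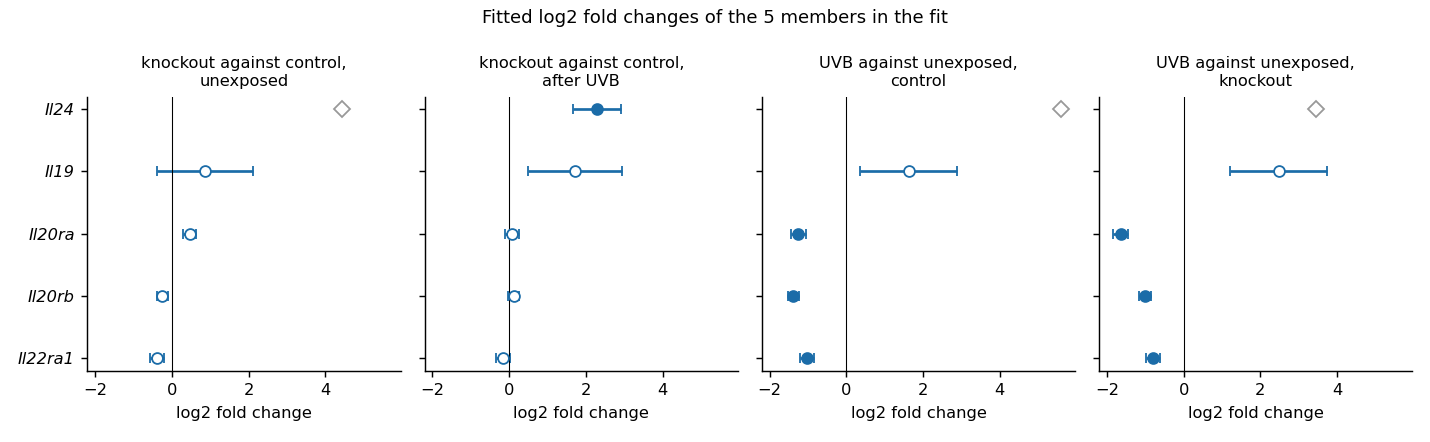
Log2 fold changes of the 5 members in the fit, in 4 comparisons. Circles with bars give the value and its SE, filled where the edgeR adjusted p was under 0.05, and grey diamonds mark Il24 where it was not tested. Il24 after UVB (2.29) and the 3 receptor chains with UVB (-1.64 to -0.80) are the filled points.

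The balance of the chains was compared within libraries, per kilobase of exon and as a description. The ratio of Il20ra to Il22ra1, the chains that tell the type I from the type II receptor, was 1.91 ± 0.465 in control and 3.45 ± 0.70 in knockout epidermis, both unexposed (SD, n = 4 each). The 4 control ratios were 1.96, 1.28, 2.40 and 2.01, and the 4 knockout ratios 3.73, 3.42, 2.50 and 4.14, with no overlap. After UVB the mean ratio of Il20ra to Il22ra1 was 1.90 ± 1.32 in control and 1.92 ± 0.262 in knockout epidermis (SD, n = 4 each). The exposed control values of that ratio were spread from 0.958 to 3.82. The ratio of Il20rb to Il20ra went the other way, at 2.84 ± 0.525 in unexposed control and 1.72 ± 0.219 in unexposed knockout epidermis (SD, n = 4 each). After UVB that ratio was 2.75 ± 0.928 in control and 2.62 ± 0.615 in knockout epidermis (SD, n = 4 each). The ratio of Il20rb to Il22ra1 was 5.25 ± 0.615 in unexposed control and 5.84 ± 0.766 in unexposed knockout epidermis (SD, n = 4 each), with overlap. Both ratios that stood apart unexposed share Il20ra. Against these chains, Il24 reached 5.03 CPM per kilobase in exposed knockout epidermis, where Il20rb stood at 44.3, Il20ra at 16.8 and Il22ra1 at 8.85 on the same scale. Il19 reached 2.02 and Il20 0.141 CPM per kilobase there.

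The stretches upstream of the 2 chains that distinguish the receptor types are printed because each holds a match to TGANTCA. This was searched as a loose form of the AP-1 motif, with any base at N, where the usual motif has C or G. The base at N was G in Il20ra and A in Il22ra1, so only the Il20ra match has the usual form. The sequences are from RefSeq (build GRCm38.p6), where 5 of the 6 members had an entry, and run 5′ to 3′ up to the first annotated exon base, with the match in capitals. The stretch of Il20ra is chr10:19712337-19712569, plus strand, and that of Il22ra1 is chr4:135727909-135728158, plus strand.
Il20ra: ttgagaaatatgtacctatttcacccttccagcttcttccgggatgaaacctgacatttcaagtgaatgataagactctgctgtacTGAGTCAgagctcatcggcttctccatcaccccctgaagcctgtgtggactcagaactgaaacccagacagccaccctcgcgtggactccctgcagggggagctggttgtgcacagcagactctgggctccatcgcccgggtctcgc
Il22ra1: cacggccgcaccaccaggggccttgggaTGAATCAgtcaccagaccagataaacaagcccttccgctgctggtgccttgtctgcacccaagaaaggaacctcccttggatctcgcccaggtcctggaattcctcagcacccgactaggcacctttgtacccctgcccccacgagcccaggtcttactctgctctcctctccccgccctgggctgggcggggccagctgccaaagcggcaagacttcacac
The match to TGANTCA began at position -164 from the RefSeq start of Il20ra and at position -222 from that of Il22ra1. On either strand, 6.75% of 32851 mouse promoters held this loose form in the 250 bases before the start. Il20rb, the third receptor chain, held no match to TGANTCA. It held TTGGGCAA, a match to the C/EBP motif TTGCNNAA on the other strand, at position -78, in a stretch that starts within an annotated exon. That motif was present in 9.56% of the same promoters. Il19 held a match to the STAT motif TTCNNNGAA, which was present in 7.02% of the same promoters. These letters are a description of the windows and not evidence of binding.

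Other IL-10 family genes were examined because Il10rb completes the IL-22 receptor with Il22ra1. Of 9 genes 5 were tested, and Il10rb and Ifnlr1, the interferon lambda receptor chain, fell with UVB in both genotypes. Over all tested genes 18% were called lower with UVB in control and 14.1% in knockout epidermis. The fall of Il10rb was 1.14 (SE 0.22, edgeR adjusted p = 0.000344) in control and 0.82 (SE 0.22, edgeR adjusted p = 0.00574) in knockout epidermis, on the log2 scale. That of Ifnlr1 was 1.17 (SE 0.17, edgeR adjusted p = 2.26e-05) and 1.36 (SE 0.18, edgeR adjusted p = 6.35e-06). No gene of this list was called between genotypes by edgeR, DESeq2 or limma voom. In edgeR an unadjusted p under 0.05 was reached by Il10rb unexposed and by Ifnlr1 after UVB, both lower in the knockout. Il22, the ligand shared through Il22ra1, had 0 counts in every library, which allows up to 3 counts a library. Il10, which lies 132.4 kb from the Il24 start site and encodes an inhibitory cytokine, averaged 0.586 ± 0.679 CPM in exposed control and 0.549 ± 0.292 CPM in exposed knockout epidermis (SD, n = 4 each).

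Downstream of the receptors, JAK, STAT and SOCS genes moved mainly with UVB. Of 16 tested genes 6 rose and 6 fell in control epidermis, with a list median of -0.06 beside -0.02 over all genes on the log2 scale. In knockout epidermis 5 rose and 4 fell, with a median of 0.08 beside 0.01. Over all tested genes 17.7% rose and 18% fell in control, and 18.1% rose and 14.1% fell in knockout epidermis. Socs3, a STAT3-induced inhibitor of cytokine signalling, went from 23.8 ± 3.78 to 105 ± 32.5 CPM in control epidermis (SD, n = 4 each), a rise of 2.14 on the log2 scale (SE 0.22, edgeR adjusted p = 2.47e-07). In knockout epidermis it went from 38.7 ± 5.46 to 83.9 ± 21.9 CPM (SD, n = 4 each), a rise of 1.12 (SE 0.21, edgeR adjusted p = 0.000294). The UVB responses of Socs3 differed by -1.02 (SE 0.29, edgeR adjusted p = 0.571). Stat3, the main transducer of these receptors, rose by 0.66 (SE 0.12, edgeR adjusted p = 0.000168) and 0.41 (SE 0.12, edgeR adjusted p = 0.00965). Jak1, a kinase of these receptors, fell by 0.81 and 0.60.

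Between genotypes Stat2, a transducer of interferon signalling, differed in both comparisons. On the log2 scale, Stat2 was higher in unexposed knockout than in unexposed control epidermis by 0.99 (SE 0.19, edgeR adjusted p = 0.00786). After UVB it was higher by 1.10 (SE 0.19, edgeR adjusted p = 0.00218). In unexposed epidermis it was the only 1 of the 16 genes that edgeR called, and DESeq2 called Socs3 as well. Stat3 had log2 fold changes of -0.01 (SE 0.12, edgeR adjusted p = 0.997) unexposed and -0.25 (SE 0.12, edgeR adjusted p = 0.232) after UVB.

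Keratinocyte genes known to be raised by IL-20 family cytokines or IL-22 rose with UVB in both genotypes. Of 16 listed genes 14 were tested, and 13 rose and 0 fell in each genotype, with medians of 2.84 in control and 2.23 in knockout epidermis beside -0.02 and 0.01 over all genes. Of all tested genes 17.7% were called higher with UVB in control and 18.1% in knockout epidermis. Krt6a, a wound keratin, went from 109 ± 70.7 to 2710 ± 999 CPM in control epidermis (SD, n = 4 each), a log2 fold change of 4.64 (SE 0.57, edgeR adjusted p = 3.19e-05). Defb3, a β-defensin, rose by 5.03 (SE 0.57, edgeR adjusted p = 9.82e-06) in control and by 4.41 (SE 0.57, edgeR adjusted p = 4.05e-05) in knockout epidermis. Mmp10, a matrix metalloproteinase, rose by 3.56 and 4.32.

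In the genotype comparisons, where Il24 was higher in the knockout, this list was divided. In unexposed epidermis 2 of 14 were called higher and 1 lower, with a median of -0.23. Over all tested genes 0.964% were called higher and 1.14% lower there. Krt6a was higher in the knockout by 2.60 (SE 0.52, edgeR adjusted p = 0.0237) and Krt16, its wound keratin partner, by 2.14 (SE 0.48, edgeR adjusted p = 0.0385), while S100a7a, an antimicrobial S100 protein gene, was lower by 1.69 (SE 0.41, edgeR adjusted p = 0.0449). The count of higher calls was 0 without unexposed control library 2, 3 or 4 or unexposed knockout library 1 or 2, 1 without unexposed knockout library 3, and 4 in DESeq2. The lower call was lost without any unexposed library other than control library 2. After UVB 0 of 14 were called higher by edgeR, DESeq2 or limma voom, 0 had an unadjusted edgeR p under 0.05 in that direction, and edgeR called 1 lower. DESeq2 called 2 lower and limma voom 3, adding S100a9 in both and S100a8 in the latter. The list median was -0.07, and over all tested genes edgeR called 2.36% higher and 2.32% lower. The edgeR call was Defb3, lower in the knockout by 1.87 (SE 0.48, edgeR adjusted p = 0.0429), a call lost without any exposed library other than control library 3. Krt6a had a log2 fold change of 0.40 (SE 0.49, edgeR adjusted p = 0.722) after UVB.

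Genes known to be lowered by these cytokines, which encode proteins of terminal differentiation, moved less uniformly. Of 8 tested genes 2 rose and 1 fell with UVB in control epidermis, and 2 rose and 2 fell in knockout epidermis. Over all tested genes 17.7% rose and 18% fell in the former, and 18.1% rose and 14.1% fell in the latter. Flg, encoding filaggrin, fell by 0.78 (SE 0.24, edgeR adjusted p = 0.0147) and by 1.25 (SE 0.24, edgeR adjusted p = 0.000391), and Dsc1, a desmosomal cadherin, rose by 1.00 and 1.32. The falling genes numbered 0 without unexposed control library 3 and 2 without unexposed control library 2 in that genotype, and 1 without unexposed knockout library 3 in the other. Between unexposed genotypes 0 of 8 were called by edgeR or limma voom, 2 had an unadjusted edgeR p under 0.05, and DESeq2 called Lor, encoding loricrin. After UVB edgeR called Lor alone, lower in the knockout by 0.91 (SE 0.20, adjusted p = 0.0105), while DESeq2 and limma voom each called Klk7 lower as well.

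**Figure D4:**
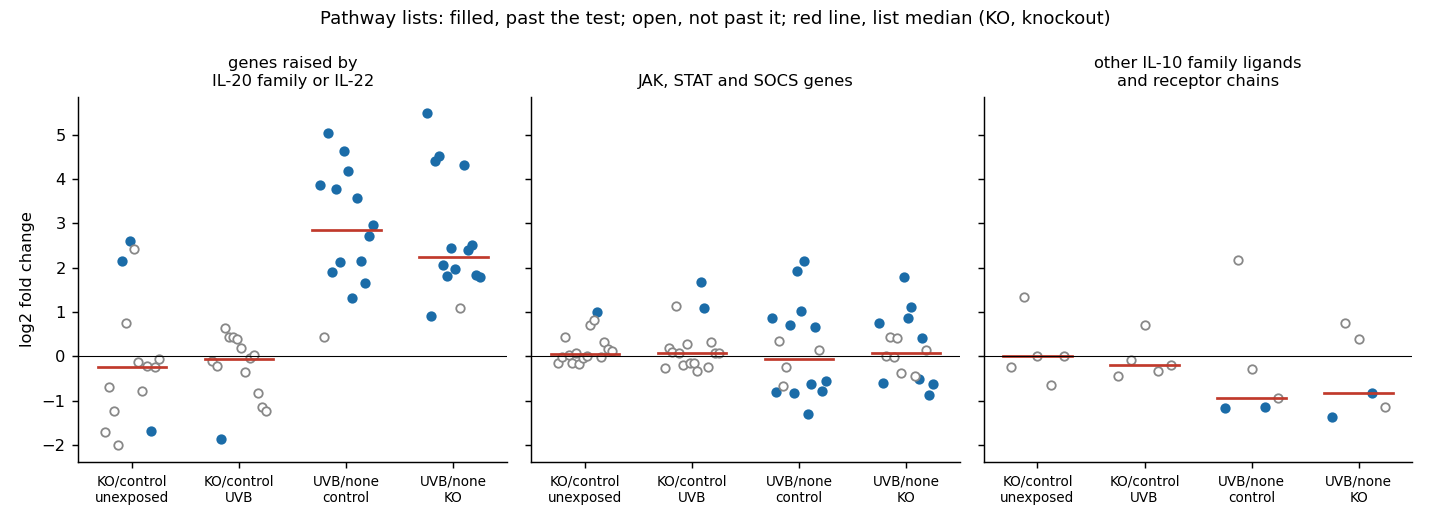
Log2 fold changes of the tested genes in 3 lists around the receptors, in 4 comparisons. Filled points had an edgeR adjusted p under 0.05, open points did not, and red lines are list medians. For genes raised by IL-20 family cytokines or IL-22, the medians were 2.84 and 2.23 with UVB, against -0.23 and -0.07 between genotypes.

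A list of inflammatory cytokines and their receptor chains, including an antagonist, rose broadly with UVB. Whether any of them acts on Il24 was not tested. Of 21 tested genes 15 rose and 2 fell in control epidermis and 13 rose and 2 fell in knockout epidermis. The list medians were 0.93 and 0.88 on the log2 scale, beside -0.02 and 0.01 over all genes. Of all tested genes 17.7% were called higher and 18% lower in control, and 18.1% higher and 14.1% lower in knockout epidermis. Osmr, the oncostatin M receptor chain, rose by 2.73 (SE 0.15, edgeR adjusted p = 3.52e-10) in control and 1.5 (SE 0.15, edgeR adjusted p = 3.3e-07) in knockout epidermis, on the log2 scale. These Osmr responses differed by -1.22 (SE 0.20, edgeR adjusted p = 0.114). That difference passed the threshold in DESeq2 (adjusted p = 0.00018) and in edgeR without the count filter (0.0291). It also passed in edgeR without exposed control library 4 (0.0338) or exposed knockout library 4 (0.016). Il1b rose by 3.68 (SE 0.47, edgeR adjusted p = 6.44e-06) and 2.88 (SE 0.45, edgeR adjusted p = 6.42e-05), and Il6ra, the IL-6 receptor chain, fell by 1.48 and 1.36.

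Between unexposed genotypes edgeR called 2 of these 21 listed genes higher in the knockout and 1 lower. Of all tested genes 0.964% were called higher and 1.14% lower there. In unexposed knockout epidermis Osmr was higher by 0.62 (SE 0.14, edgeR adjusted p = 0.0267) and Il33, an alarmin, by 2.18 (SE 0.48, edgeR adjusted p = 0.0385), and Il36a was lower by 0.62 (SE 0.15, edgeR adjusted p = 0.0355). Without any 1 of the 4 unexposed control libraries, or unexposed knockout library 1 or 2, none of the higher calls or the lower call was made, and without unexposed knockout library 3 only 1 higher call was. After UVB 0 of 21 were called higher in the knockout by edgeR, DESeq2 or limma voom. In that direction 4 had an unadjusted edgeR p under 0.05, as did 11.1% of all tested genes. Of all tested genes edgeR called 2.36% higher and 2.32% lower in that comparison. Among the 21 listed genes 3 were called lower in edgeR. These were Il36a by 1.07 (SE 0.15, edgeR adjusted p = 0.000412), Il1rn, the IL-1 receptor antagonist, by 0.62 (SE 0.14, edgeR adjusted p = 0.0135) and Osmr by 0.60 (SE 0.14, edgeR adjusted p = 0.0188). The lower calls numbered 1 without exposed knockout library 1 or 3, and 1 gene was called higher without exposed control library 2.

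Listed genes around Il24 on chromosome 1 were compared in the same way. The list does not hold every gene of the stretch, and Pfkfb2 and AA986860 among others were not compared here. Of 8 tested genes on it, 0 were called by edgeR or limma voom in either genotype comparison, and DESeq2 called Mapkapk2 lower in unexposed knockout epidermis. Over all tested genes edgeR called 0.964% higher and 1.14% lower unexposed, and 2.36% higher and 2.32% lower after UVB. At an unadjusted p under 0.05 edgeR listed Yod1 after UVB and, in both comparisons, Mapkapk2, a stress kinase 210.4 kb from the Il24 start site, with log2 fold changes of -0.46 (SE 0.13, edgeR adjusted p = 0.0649) unexposed and -0.33 (SE 0.13, edgeR adjusted p = 0.144) after UVB. Pigr, the polymeric immunoglobulin receptor at -60.8 kb on the other side, fell with UVB in control epidermis by 1.96 (SE 0.68, edgeR adjusted p = 0.0287). Its mean there went from 1.6 to 0.407 CPM. With UVB in control epidermis edgeR called 0 of the 8 higher and 1 lower, beside 17.7% and 18% of all tested genes. DESeq2 and limma voom also called Yod1 higher there.

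**Figure D5:**
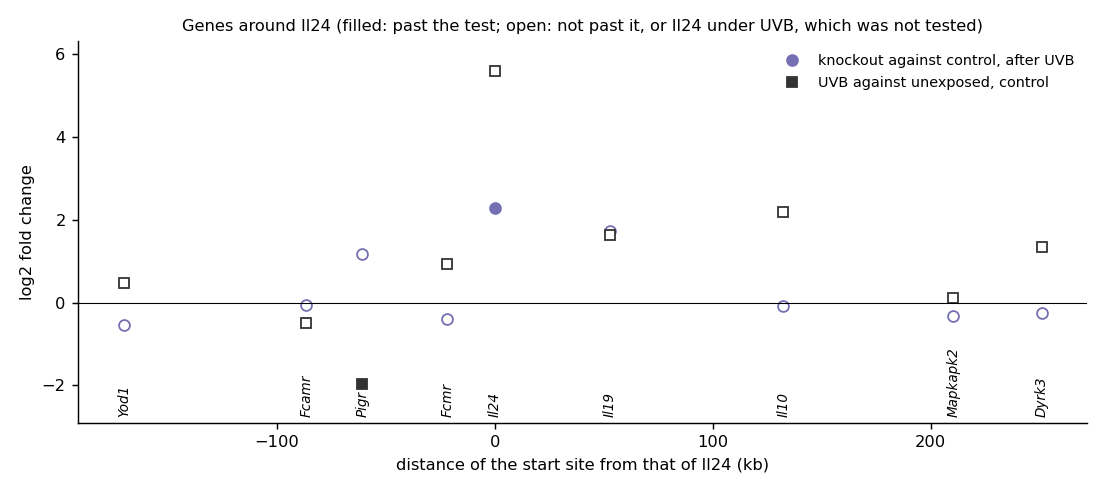
Log2 fold changes of the listed genes around Il24 that were tested, against the distance of their start sites from that of Il24 (kb, negative toward lower coordinates), for knockout against control after UVB (circles) and for UVB in control epidermis (squares). Filled symbols had an edgeR adjusted p under 0.05. Il24 at 2.29 is the only filled circle, and Pigr at -1.96 the only filled square.

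The genes whose log2 CPM over the 16 libraries was most like that of Il24 were Duoxa1 and 1200007C13Rik (Pearson's r = 0.95 each), Kcnc4, Icam1 and Fam167a (0.94 each) and 2310046K23Rik, Mrpl12 and Stom (0.93 each). These values are a description over libraries that share the exposure and genotype differences. Duoxa1, needed for maturation of a dual oxidase, averaged 3.07, 8.42, 13.9 and 18.8 CPM in unexposed control, unexposed knockout, exposed control and exposed knockout epidermis. Icam1, a leukocyte adhesion molecule, averaged 11.1, 20.2, 32.6 and 50.8 CPM in the same order, and Kcnc4, a voltage-gated potassium channel, 5.54, 17.9, 28.5 and 65.1 CPM. Il20rb was most like Rasal1, Gjb5 and Kremen1 (r = 0.98 each), Il20ra most like Gnaq (0.96), Slc6a4 and Sil1 (0.95 each), and Il22ra1 most like Acsl1 (0.95), Map3k9 and Sema4g (0.94 each). Il19 was most like Ndufb6 (0.88), Cd200r1 (0.85) and Mir196a-1 (0.84). Among the members themselves, over the same 16 libraries, r was 0.86 for Il20ra with Il20rb and for Il20rb with Il22ra1. It was -0.84 for Il24 with Il20rb, -0.85 for Il24 with Il22ra1 and 0.45 for Il24 with Il19.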

How the data were processed

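The authors deposited a table of raw read counts per Ensembl gene for 16 libraries, with 32983160 to 53255160 counts each. FastQC, STAR, HTSeq and DESeq2 are named in the submitters' processing notes, and the library kit was directional per the labels' protocols. No source used here gives the build, annotation or strand setting of the counting. Of counts from 2 to 101, 68.8% were even, so many read pairs may have been counted as 2 reads. Counting limits cover counting error only.

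Genes were named through GENCODE (49326 of 49585 matched). All 16 libraries entered 1 edgeR 4.0.16 quasi-likelihood fit (R 4.3.3; filterByExpr, TMM, robust, 1 mean per group), which kept 17741 genes and had a common biological coefficient of variation of 0.445. P-values were Benjamini-Hochberg adjusted over all of these, with a threshold of 0.05. DESeq2 1.42.0, limma voom 3.58.1, other scalings, no filter, a sex term, only the groups compared and each library left out were alternatives. The fits were also run on simulated data, with the outcome not reported here. Only genes above a set mean level were altered there, under a fixed spread. Levels as low as those of Il20, or of Il24 in unexposed control epidermis, were not covered. Il20 failed the filter and was tested by exact permutation (scipy 1.17.1). Motifs were searched on both strands. From each list the genes named have the smallest p in the comparison (up to 4), and those most like a member have the highest Pearson correlation (8 for Il24, 3 for others). Genes named outside that rule (such as Krt6a after UVB, Stat3 unexposed, Il10 and Il22) were chosen after their values were seen. Some results on listed genes are not reported here. The members and the lists were chosen with earlier results of these data known.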

Additional observations from a re-analysis of the deposited data

Results flagged for a closer look

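Of 24 sets of 4 libraries (6 members in 4 groups), 4 had a library whose gap to its nearest neighbour exceeded Dixon's 95% critical value for 4 samples, and chance flags about 1 in 20 where values are not tied. Both flags in unexposed control library 4 are a value above 0 beside 3 libraries at 0, which this measure always flags. Il24 in unexposed control library 4 stood at 0.091 CPM with the other 3 libraries at 0. Il19 in exposed control library 1 stood at 2.49 CPM, with the next library at 0.32 CPM. Il20 in unexposed control library 4 was 0.0182 CPM, a lone count. Il20 in unexposed knockout library 2 was 0.142 CPM, with the next at 0.0163 CPM.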

How the results depend on the processing

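The number of members called after UVB between genotypes was 1 in the 7 fits with other scalings, filters, tools, samples or a sex term, and 0 with each of the 8 exposed libraries left out. The numbers called in the other comparisons stayed within 1.5 times their value in every setting. The difference in mean Il20 CPM between knockout and control after UVB ranged from -0.171 to 0.0276 with a library left out, against -0.0864 with all, and none of the 4 Il20 comparisons passed the exact test. Without unexposed control library 4, which held the lone Il24 counts of its group, the fitted Il24 log2 fold change was 7.84 for unexposed knockout against control (4.44 with it) and 8.99 for UVB in control epidermis (5.59 with it). The remaining unexposed control libraries held 0 Il24 counts, so 7.84 and 8.99 have no measured base and are not measured folds. Against the limit of 3 counts in those libraries the bounds were 8.33-fold and 18.8-fold. In a fit of the unexposed libraries alone Il24 failed the filter. With lengths of the longest transcript in place of all exon bases, the ratio of Il20rb to Il20ra in unexposed control epidermis was 3.71 in place of 2.84. No paired analysis was possible because the labels give no replicate numbers, only library names. Il24, Il19 and Il20 had few counts, which limits the precision of their values.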
